A study of Mus musculus with 6 samples.

Results

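The AP-1 and immediate early genes are 10 genes, Fos, Fosb, Fosl1, Fosl2, Jun, Junb, Jund, Egr1, Ier2 and Ier3, chosen by name and read through every probe set that the annotation of the array platform maps to them. All 10 had a probe set, 13 in all, among 8251 named genes on the array. The values come from 6 arrays, in 3 groups of 2, of engineered NIH3T3 cells, an immortal mouse fibroblast line. In the estradiol group doxycycline was absent and estradiol was given at 1 mM, as the labels write it, for 48 h. In the withdrawal group doxycycline was absent and no agent was added. In the doxycycline group the cells had 2 µg/ml doxycycline. All 3 groups carry c-myc and Ha-ras under a Tet-off promoter, which doxycycline silences, and make IRF-1hER all the time, a fusion of the transcription factor IRF-1 that estradiol activates. The labels describe the same modifications for every sample, so no group lacks the fusion or the oncogene constructs. The doxycycline group is therefore not the parental line, and doxycycline differs between the groups together with the oncogenes. Between the estradiol and doxycycline groups estradiol differs as well, so these parts cannot be told apart in that comparison.

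AP-1 is a pair of bZIP proteins that bind DNA as a dimer: a Fos protein (Fos, Fosb, Fosl1, Fosl2) with a Jun protein (Jun, Junb, Jund), or Jun proteins with each other. Growth factors and Ras signalling switch on most of these genes within minutes and without new protein synthesis, which is why they are called immediate early, and in fibroblasts the first wave of Fos and Egr1 transcripts fades soon after the stimulus. Fosl1, which encodes Fra-1, and Jun stay high longer when Ras or ERK signalling persists. Egr1 is a zinc finger factor, Ier2 a small nuclear protein and Ier3 a stress-regulated protein that affects cell survival.

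RefSeq promoters (GRCm38.p6) were matched for 7 of the 10 genes and not for Fosl1, Egr1 and Ier2. The 250 bases before the start are printed for Fos, which stayed dim on every array, and for Jun and Junb. Jun and the brighter Junb probe set correlated over the arrays at r = 0.82, and Jun and the dimmer one at r = 0.30. Jun and the brighter Junb probe set were both highest on the second doxycycline array, at 173.7 and 178.7. The part of that array in the correlation was not tested. Capitals mark the TATA box letters (TATAAA) in Fos, the start of a cAMP response element (TGACG) in Fos and Junb, and a variant AP-1 site (TGACATCA) in Jun. Fos lies at chr12:85473640-85473889 on the + strand, Jun at chr4:95052223-95052472 on the - strand and Junb at chr8:84978749-84978998 on the - strand.
Fos: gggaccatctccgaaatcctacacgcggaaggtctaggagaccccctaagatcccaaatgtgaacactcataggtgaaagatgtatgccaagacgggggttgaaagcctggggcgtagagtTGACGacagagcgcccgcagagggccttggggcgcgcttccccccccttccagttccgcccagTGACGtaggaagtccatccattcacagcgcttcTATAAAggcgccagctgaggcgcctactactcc
Jun: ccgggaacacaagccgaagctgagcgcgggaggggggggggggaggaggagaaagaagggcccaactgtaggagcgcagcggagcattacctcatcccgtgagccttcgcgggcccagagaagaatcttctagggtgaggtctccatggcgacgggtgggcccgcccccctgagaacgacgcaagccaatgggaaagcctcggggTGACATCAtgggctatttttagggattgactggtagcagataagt
Junb: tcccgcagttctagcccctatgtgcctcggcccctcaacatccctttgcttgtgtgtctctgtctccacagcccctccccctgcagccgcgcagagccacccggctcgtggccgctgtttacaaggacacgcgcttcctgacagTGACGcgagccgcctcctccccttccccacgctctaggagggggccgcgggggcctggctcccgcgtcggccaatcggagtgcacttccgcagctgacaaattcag

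The letters TGACATCA, known from human JUN as a variant AP-1 site through which AP-1 acts on its own gene, stand in the Jun window 45 bases before the start, and 2.93% of all 32851 promoter windows of this length hold them on either strand. TGACG, the first letters of the cAMP response element TGACGTCA and thus part of every such element, stands in the Fos window at 129 and 66 bases before the start, in Junb at 106 and in Fosb at 60, against 17.8% of all windows. TATAAA stands in Fos 33 bases before the start (12.4% of all windows). The Egr site GCGNGGGCG was found in Fosb and Fosl2 (4.70% of all windows) and the IRF core AANNGAAA in Fosl2 and Jund (21.3%). On both strands of the 7 windows there was no match to the AP-1 site TGANTCA (6.75% of all windows) or to TGACGTCA (1.55%). The E-box CACGTG (6.02%) and the CArG box (1.47%) were not found in them either. Sequence further upstream was not searched, and Fosl1, Egr1 and Ier2 had no window. The absence of a match therefore holds only inside these windows, and sites outside them were not tested. TGACG and TGACATCA were added to the search after the windows had been read, and all of these are matches of letters, not measured binding.

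The values are MAS5 signals, the brightness of a probe set on a linear scale, which do not compare levels between genes. The arrays had been brought to 1 level, with median signals between 49.7 and 52.7 and 40.6% to 42.1% of probe sets below a signal of 32. Similarity between arrays followed the labels only in part. The withdrawal and estradiol arrays of replicate 1 differed at least 2-fold (on signal + 32) in 16 of the 7453 tested probe sets and in 0 members, while the 2 withdrawal arrays differed in 920 and in 1 member, Ier3. The second withdrawal array differed from the first doxycycline array in 324, against 283 between the 2 doxycycline arrays. By this measure each withdrawal array was nearer to an array of another group than to its own replicate. Whether an array carries the wrong label was not tested, and every withdrawal value below rests on the labels. For doxycycline replicate 2 the labels conflict, because E2 appears in its title but not among its treatments. It stayed with the doxycycline group, and values without it are given below. Of 14 fibroblast markers, 11 passed the filter on dim probe sets, and Vim, Lum and Fap were dim, with Vim between 5.9 and 40.7. Their summed signal was 16550 to 21597 on the estradiol arrays, 21603 to 27411 on the withdrawal arrays and 28865 to 31450 on the doxycycline arrays, and its part in the results below was not tested. Macrophage markers summed to 605 to 648 over all arrays, and 4 of the 8 genes passed the filter. These were Cd14 (257.4 to 379.1), Csf1r (81.8 to 155.4), Cd68 (70.1 to 132.1) and Fcgr1 (66.5 to 92.3). The others, Ptprc, Adgre1, Itgam and Lyz2, were below 32 on each array. Epithelial markers summed to 219 to 238, 208 to 219 and 263 to 333 in the estradiol, withdrawal and doxycycline groups (2 of 9 genes passed), endothelial markers to 58.2 to 110.3 over all arrays (0 of 7 passed) and lymphocyte markers to 142 to 196 (2 of 8 passed). No marker was at exactly 0. In cultured cells measured in bulk, fewer cells of a type and less RNA per cell cannot be told apart.

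**Figure D1:**
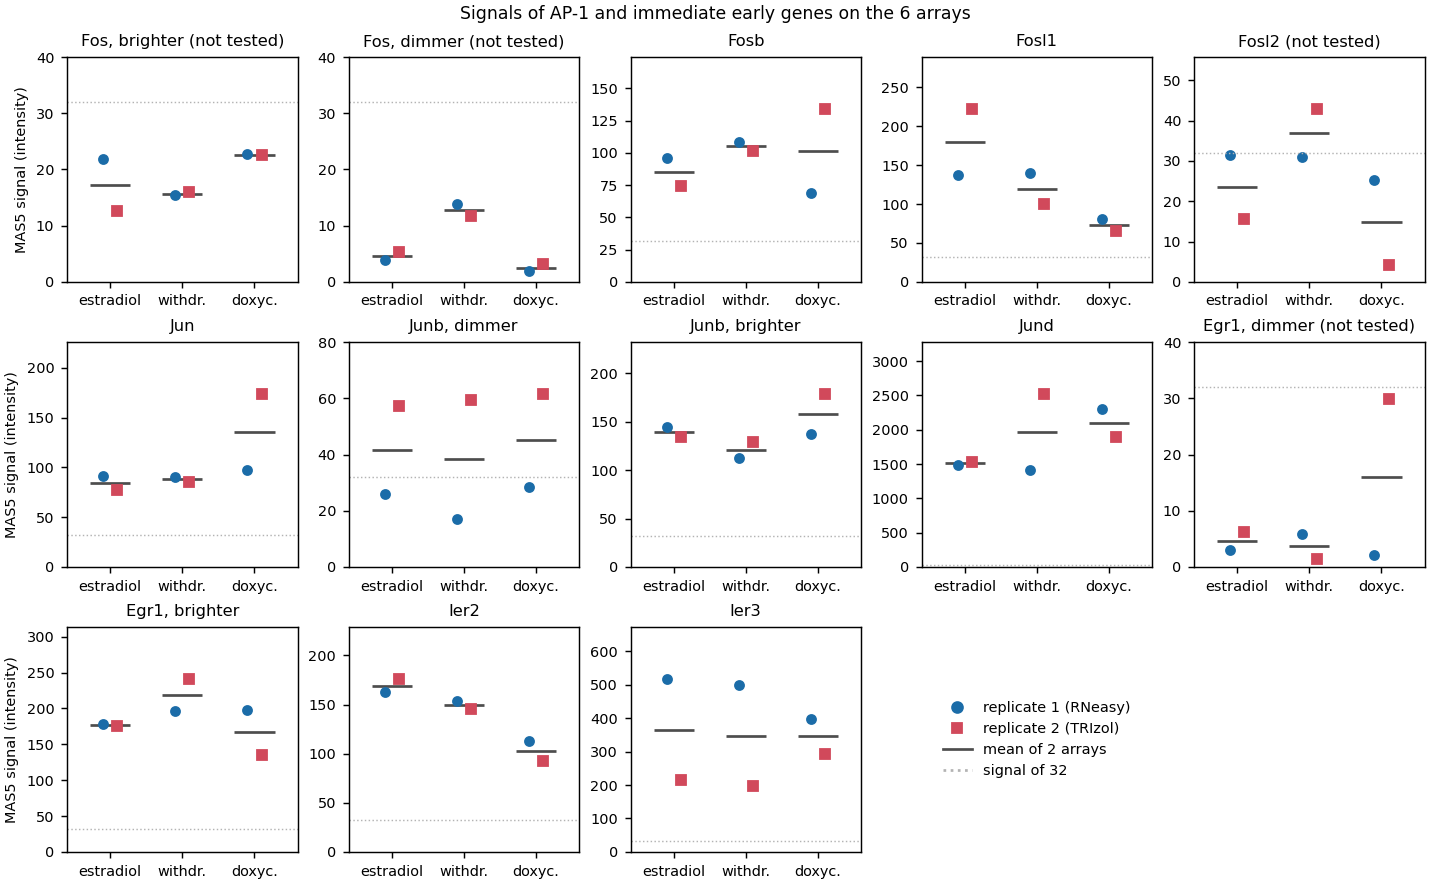
MAS5 signal of each member probe set (linear axis from 0) on the 6 arrays, with the estradiol, withdrawal and doxycycline groups from left to right. Circles are replicate 1 (RNeasy extraction), squares replicate 2 (TRIzol), bars the mean of 2 arrays and the dotted line a signal of 32. Fosl1 and Ier2 are lowest on both doxycycline arrays, while Ier3 and the dimmer Junb probe set separate by replicate number.

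Of the 13 member probe sets, 9 for 8 genes passed the filter on dim probe sets and were tested. The 4 others are both Fos probe sets, that of Fosl2 and the dimmer one of Egr1, and 3 of them lay below 32 on every array. None of the 9 rose or fell by the test in any comparison (limma, Benjamini-Hochberg adjusted p under 0.05), as was true of all tested probe sets, of which 0% were called in each comparison. The members nearest to the threshold were Fosl1 and Ier2, both higher with estradiol than with doxycycline. With 2 arrays against 2, an exact two-sided permutation test of a single value could not give a p below 0.333.

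Fosl1 (Fra-1) had the largest difference between groups among the tested members. It read 136.8 and 222.3 on the estradiol arrays, 139.5 and 99.5 on the withdrawal arrays and 80.8 and 65.4 on the doxycycline arrays. Both arrays of each group without doxycycline lay above both doxycycline arrays, and the estradiol and withdrawal groups overlapped. The group means were 179.6 ± 60.5, 119.5 ± 28.3 and 73.1 ± 10.9 in that order (SD, n = 2 each). For estradiol against doxycycline the log2 fold change, on the scale of signal + 32 used throughout, was 0.98 (SE 0.30, 95% interval 0.30 to 1.66), with an unadjusted p of 0.0103 and an adjusted p of 0.258 by limma. It was 0.58 within replicate 1 and 1.38 within replicate 2. Without the second estradiol array, the brightest one, it was 0.69, and without the second doxycycline array it was 0.88. The adjusted p lay between 0.102 and 0.909 over all alternatives.

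Withdrawal against doxycycline gave a log2 fold change of 0.52 for Fosl1 (SE 0.30, 95% interval -0.16 to 1.20, adjusted p = 0.925 by limma), with 0.60 and 0.43 within replicates 1 and 2. It was 0.33 without the first withdrawal array and 0.71 without the second. Estradiol against withdrawal gave 0.46 (SE 0.30, 95% interval -0.22 to 1.15, adjusted p = 1.00), made up of -0.02 within replicate 1 and 0.95 within replicate 2. The difference between the estradiol and withdrawal groups thus lay in replicate 2. It was 0.17 without the second estradiol array, 0.27 without the second withdrawal array and 0.76 without the first estradiol array.

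Ier2 read 162.7 and 175.9 on the estradiol arrays, 153.9 and 145.5 on the withdrawal arrays and 113.2 and 92.9 on the doxycycline arrays. It was the only tested member in which no pair of groups overlapped, and the order of the groups was the same in both replicates. Estradiol against doxycycline gave a log2 fold change of 0.58 (SE 0.25, 95% interval 0.02 to 1.14), with an unadjusted p of 0.0450 and an adjusted p of 0.348 by limma, and 0.42 and 0.74 within replicates 1 and 2. Withdrawal against doxycycline gave 0.43 (SE 0.25, 95% interval -0.13 to 0.99, adjusted p = 0.925), with 0.36 and 0.51 within replicates. It was 0.40 and 0.47 without the first and second withdrawal arrays, and 0.32 without the second doxycycline array. Estradiol against withdrawal gave 0.15 (SE 0.25, 95% interval -0.42 to 0.71, adjusted p = 1.00). Over the 6 arrays Ier2 and Fosl1 correlated at r = 0.92 on the log2 scale, a description of arrays that share their groups.

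Among the other Fos genes, Fosb read 96.3 and 74.4 on the estradiol arrays, 108.4 and 101.7 on the withdrawal arrays and 68.5 and 134.0 on the doxycycline arrays. The 2 doxycycline arrays spanned all the others, and the log2 fold changes were -0.14 for estradiol against doxycycline, 0.09 for withdrawal against doxycycline and -0.23 for estradiol against withdrawal (SE 0.30 each). Without the second doxycycline array the differences of Fosb from doxycycline were 0.22 with estradiol and 0.45 after withdrawal, and without the first they were -0.51 and -0.28, so their sign turned on which doxycycline array was kept. Fosl2 (Fra-2) was dim, with 31.5 and 15.5 on the estradiol arrays, 30.9 and 42.9 on the withdrawal arrays and 25.2 and 4.3 on the doxycycline arrays, and was not tested. Fos itself was dim in both its probe sets. The brighter one read 21.8 and 12.6 with estradiol, 15.5 and 15.9 after withdrawal and 22.7 and 22.6 with doxycycline. The dimmer one read 3.8 and 5.3, 13.8 and 11.7, and 1.9 and 3.2 in the same order of groups. The probe sets disagreed, since the withdrawal arrays were below both doxycycline arrays in the brighter one and above them in the dimmer one. With no filter on dim probe sets the dimmer one differed by 0.37 on the log2 scale between withdrawal and doxycycline, with an unadjusted p of 0.00383 and an adjusted p of 0.954 by limma.

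None of the Jun genes passed the test. Their mean log2 signals were lower in both groups without doxycycline than with it, but only for Jun did both differences stay below 0 whichever array was left out. Jun, the main transactivating partner of Fos, read 91.0 and 77.6 on the estradiol arrays, 90.6 and 85.3 on the withdrawal arrays and 96.9 and 173.7 on the doxycycline arrays. The second doxycycline array stood far above the other 5, which lay between 77.6 and 96.9. The log2 fold change was -0.49 for estradiol against doxycycline (SE 0.29, 95% interval -1.15 to 0.18, adjusted p = 0.473 by limma), and -0.15 without that array. For withdrawal against doxycycline it was -0.44 (SE 0.29, 95% interval -1.11 to 0.22, adjusted p = 0.935), and -0.10 without that array. Estradiol against withdrawal gave -0.05 (SE 0.29, 95% interval -0.71 to 0.62).

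Junb, which forms weaker activating dimers than Jun, had 2 tested probe sets. The brighter one read 144.4 and 134.0 on the estradiol arrays, 112.1 and 128.9 on the withdrawal arrays and 137.5 and 178.7 on the doxycycline arrays. The withdrawal arrays lay below all the others, with -0.31 for withdrawal against doxycycline (SE 0.25, adjusted p = 0.935 by limma; -0.15 without the second doxycycline array) and 0.17 for estradiol against withdrawal (SE 0.25, adjusted p = 1.00). Estradiol against doxycycline gave -0.14 (SE 0.25), with 0.06 and -0.34 within replicates 1 and 2, and 0.01 without the second doxycycline array. Jun and this probe set were both brightest on that array, as were Fosb and the dimmer probe sets of Junb and Egr1. The dimmer probe set read 25.9 and 57.5, 17.2 and 59.4, and 28.6 and 61.6 in the estradiol, withdrawal and doxycycline groups. Its 3 arrays of replicate 1 lay between 17.2 and 28.6 and its 3 arrays of replicate 2 between 57.5 and 61.6, and its log2 fold changes were -0.07, -0.17 and 0.10 for estradiol against doxycycline, withdrawal against doxycycline and estradiol against withdrawal (SE 0.39 each). With 1 array left out these 3 values for the dimmer Junb probe set ran from -0.38 to 0.25, from -0.61 to 0.28 and from -0.34 to 0.55, so none kept its sign.

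Jund, the Jun gene that is expressed steadily in resting fibroblasts, read 1489 and 1536 on the estradiol arrays, 1409 and 2521 on the withdrawal arrays and 2299 and 1890 on the doxycycline arrays. The estradiol arrays lay below both doxycycline arrays (log2 fold change -0.45, SE 0.34, 95% interval -1.23 to 0.32, adjusted p = 0.581 by limma), with -0.62 and -0.29 within replicates 1 and 2. The withdrawal arrays were at opposite ends of the range. Withdrawal against doxycycline gave -0.14 (SE 0.34), or -0.55 without the second withdrawal array and 0.27 without the first. Estradiol against withdrawal gave -0.31 (SE 0.34), or 0.10 without the second withdrawal array and -0.73 without the first. The sign of the first of these Jund differences thus turned on the first withdrawal array and that of the second on the second withdrawal array.

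Egr1, in its brighter probe set, read 178.6 and 175.7 on the estradiol arrays, 196.5 and 241.0 on the withdrawal arrays and 197.6 and 135.6 on the doxycycline arrays. Both estradiol arrays were below both withdrawal arrays (log2 fold change -0.26, SE 0.27, 95% interval -0.89 to 0.37, adjusted p = 1.00 by limma). Withdrawal against doxycycline gave 0.35 (SE 0.27, adjusted p = 0.935), with -0.01 within replicate 1 and 0.70 within replicate 2, and 0.12 without the second doxycycline array. Estradiol against doxycycline gave 0.09 (SE 0.27), or -0.13 without that array. The dimmer Egr1 probe set stayed at 29.9 or below on every array, with that value on the second doxycycline array and at most 6.2 on the other 5.

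Ier3 separated by replicate number, and its differences from doxycycline ran in opposite directions within the replicates. Estradiol against withdrawal gave 0.05 and 0.10 within replicates 1 and 2. It read 516.9 and 214.4 on the estradiol arrays, 498.0 and 197.2 on the withdrawal arrays and 397.6 and 292.8 on the doxycycline arrays. All 3 arrays of replicate 1 (RNeasy) were above all 3 of replicate 2 (TRIzol), with a mean log2 difference of -0.92 for replicate 2 minus replicate 1. The log2 fold changes were -0.02 for estradiol against doxycycline, -0.10 for withdrawal against doxycycline and 0.08 for estradiol against withdrawal (SE 0.49 each, or 0.31 when blocked on replicate number). Against doxycycline they were 0.35 and -0.40 with estradiol, and 0.30 and -0.50 after withdrawal, within replicates 1 and 2, so the small means came from opposite signs. With 1 array left out, Ier3 ran from -0.60 to 0.56 for estradiol against doxycycline, from -0.70 to 0.50 for withdrawal against doxycycline and from -0.53 to 0.68 for estradiol against withdrawal. The wide 95% interval, -1.23 to 1.03 for withdrawal against doxycycline, covers changes of 2-fold in either direction. Ier3 and the dimmer Junb probe set were the 2 members of 9 split by replicate number, 1 in each direction. Of all tested probe sets, 7.72% were higher and 6.75% lower in replicate 2 without overlap.

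**Figure D2:**
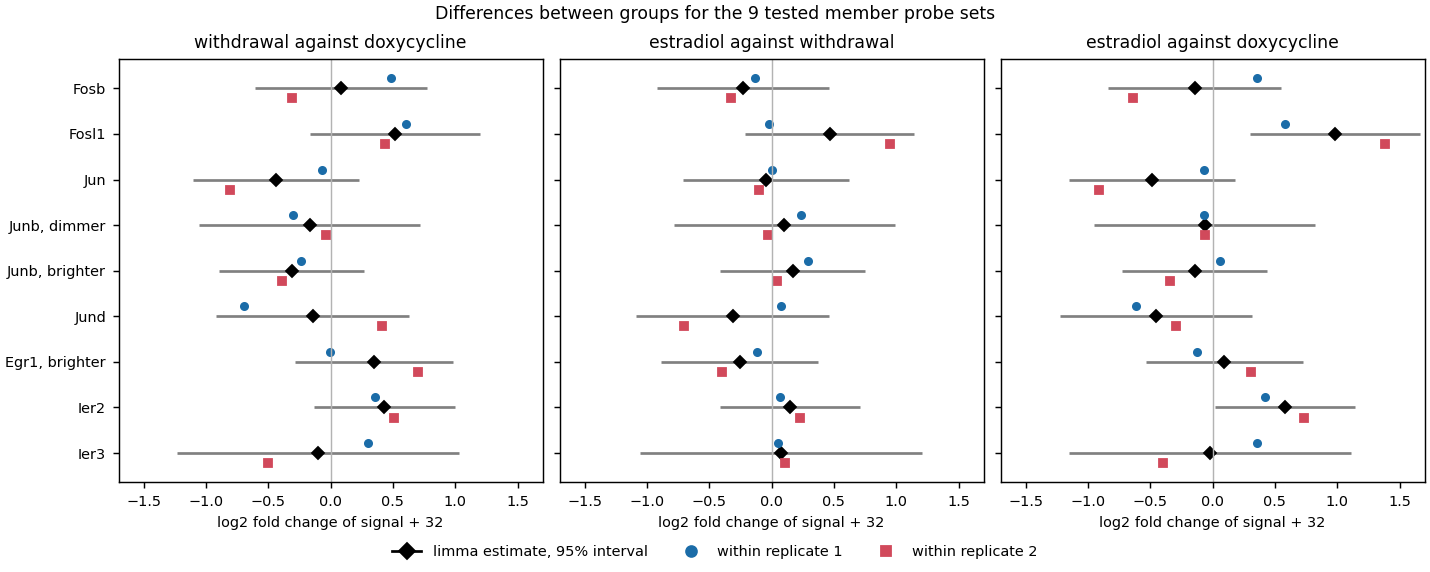
Log2 fold change of signal + 32 (x axis) for the 9 tested member probe sets in the 3 comparisons. Diamonds and lines are limma estimates with 95% intervals, circles the difference within replicate 1 and squares within replicate 2. For Fosl1 and Ier2 both replicates lie to the right of 0 against doxycycline, and the interval excludes 0 only for these 2 in estradiol against doxycycline, where neither passed the adjusted threshold.

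Counted over the 9 tested probe sets, 4 were higher and 5 lower after withdrawal than with doxycycline, with a median log2 fold change of -0.10, against 0.01 over all tested probe sets. Fosl1 and Ier2 were higher without overlap (2 of 9, against 16.9% of all probe sets) and Jun and the brighter Junb probe set lower (2 of 9, against 15%). At an unadjusted p under 0.05 there were 0 of 9, against 4.37%. The median was 0.27 without the first withdrawal array and 0.12 without the second, so its sign was not stable.

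Between estradiol and withdrawal 5 were higher and 4 lower, with a median of 0.08 against 0.01 over all tested probe sets. Ier2 and the brighter Junb probe set were higher without overlap (2 of 9, against 11.6%), and Egr1 and Fosb lower (2 of 9, against 10.3%). At an unadjusted p under 0.05 there were 0 of 9, against 0.698%. The median was -0.13 without the first estradiol array and 0.10 without the second withdrawal array.

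Between estradiol and doxycycline 3 were higher and 6 lower, with a median of -0.07 against 0.00 over all tested probe sets. Fosl1 and Ier2 were higher without overlap (2 of 9, against 27%), and Jun and Jund lower (2 of 9, against 24.7%). Fosl1 and Ier2 also had an unadjusted p under 0.05 (2 of 9, against 14%). Each comparison shares a group of arrays with the other two, so their values are not independent. These shares are close enough to those of all probe sets, over 9 probe sets, that they say nothing particular of the members, and a probe set entered the 9 by its mean over all 6 arrays.

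The patterns most like those of the most variable members were looked up among 6730 other named probe sets, by Pearson r over the 6 arrays on the log2 scale. Nearest to Fosl1 were Pa2g4, a growth-regulated RNA-binding protein (r = 0.999), Slco3a1, an organic anion transporter (r = 0.998), Acot7, an acyl-CoA thioesterase (r = 0.998), Fkbp1a, the FK506-binding protein (r = 0.996), and Ranbp1, a Ran regulator (r = 0.995). Pa2g4 read 150.9 and 410.4 with estradiol, 160.9 and 75.7 after withdrawal and 48.4 and 32 with doxycycline, a wider range than that of Fosl1. The pattern is a common one on these arrays, shared at r over 0.9 by 428 probe sets. Nearest to Ier3 were Zwint (r = 0.996), a kinetochore protein, the ribosomal protein gene Rplp0 (r = 0.994), Faf1 (r = 0.993), Ostc (r = 0.992) and Dynll1 (r = 0.991), all higher on the replicate 1 arrays, and 193 probe sets exceeded 0.9.

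**Figure D3:**
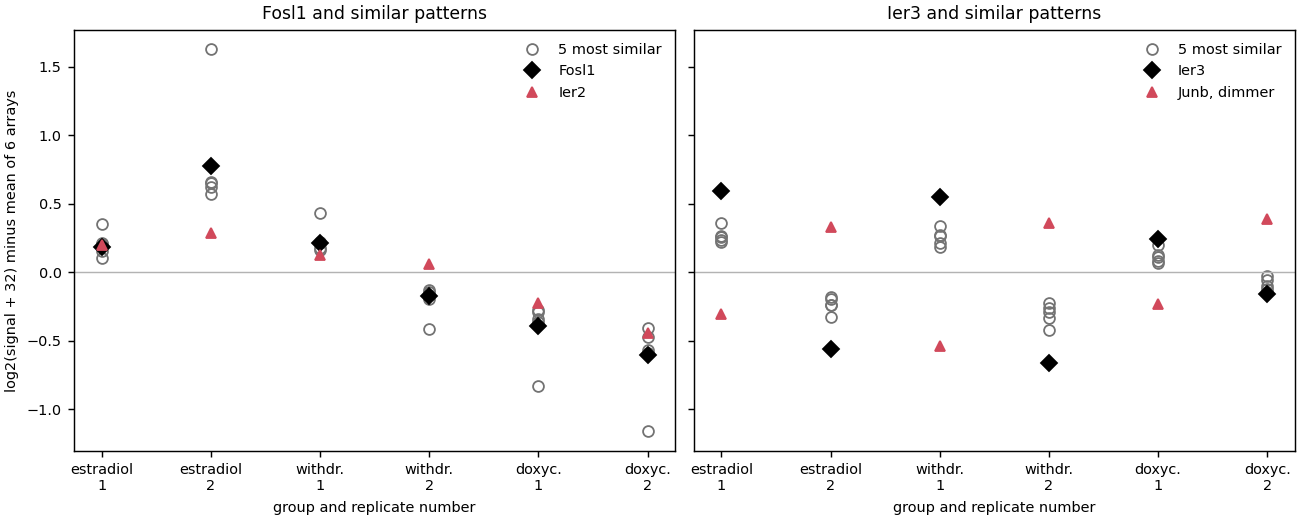
Log2(signal + 32) minus the mean of the 6 arrays (y axis) by group and replicate number for Fosl1 (left) and Ier3 (right), as diamonds, with the 5 most similar genes as open circles. Triangles are Ier2 on the left and the dimmer Junb probe set on the right. Fosl1 is highest on the second estradiol array and lowest on the second doxycycline array, while Ier3 alternates with replicate number.

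The AP-1 dimer partners and other bZIP factors, listed together, lay on both sides of 0. Of 12 tested genes, 0 passed in any comparison (at an unadjusted p under 0.05 by limma, 1 for estradiol against doxycycline, against 14% of all probe sets, and 0 in each of the others), with 7 higher and 5 lower after withdrawal than with doxycycline (median log2 fold change 0.06). Atf6, a sensor of unfolded protein, read 106.2 and 108.9 with estradiol, 93.2 and 98.6 after withdrawal and 57.0 and 63.4 with doxycycline, which gave 0.60 for estradiol against doxycycline (SE 0.23, adjusted p = 0.329 by limma). Atf4, the effector of the integrated stress response, read 1433 and 1932, 1377 and 1191, and 1013 and 1121 in the same order. Atf5, a relative of Atf4, was lowest after withdrawal, with 176.9 and 139.1 against 225.4 and 267.0 with doxycycline (-0.55, SE 0.26, adjusted p = 0.925).

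Genes listed as other immediate early transcription factors were mostly lower in the estradiol group. Against doxycycline 15 of 18 tested genes were lower, 3 were higher and 0 passed (1 at an unadjusted p under 0.05 by limma, against 14% of all probe sets, median -0.35), and against withdrawal 14 were lower (median -0.28, with 0.06 within replicate 1 and -0.45 within replicate 2). Nr4a1, the orphan receptor Nur77, read 79.1 and 36.0 with estradiol, 75.5 and 111.5 after withdrawal and 107.9 and 123.5 with doxycycline (-0.76 for estradiol against doxycycline, SE 0.31, adjusted p = 0.339 by limma). Zfp36l1, an mRNA-destabilising protein kept in this list, read 159.8 and 223.8, 153.3 and 870.7, and 508.4 and 341.5. Its relatives Zfp36 and Zfp36l2 are also in the list, and all of them were among the 15 lower against doxycycline. The inhibitor of bHLH factors Id3 read 149.4 and 349.6, 173.2 and 900.9, and 725.7 and 356.9. In Zfp36l1 and Id3 the second withdrawal array was the brightest of all 6, and the first was close to the first estradiol array. Without the second withdrawal array, 7 of 18 were lower in the estradiol group than after withdrawal (median 0.08).

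Of 25 other growth factor induced immediate early genes, 18 were lower and 7 higher with estradiol than with doxycycline, and 0 passed (7 at an unadjusted p under 0.05 by limma, against 14% of all probe sets). Their median was -0.46, or -0.07 without the second doxycycline array. Plaur, the urokinase receptor and a reported AP-1 target, read 114.9 and 113.8 with estradiol, 72.5 and 65.2 after withdrawal and 26.8 and 44.4 with doxycycline. Its 3 groups did not overlap, and its log2 fold change was 1.13 for estradiol against doxycycline (SE 0.25, unadjusted p = 0.00187, adjusted p = 0.255 by limma), 0.59 for withdrawal against doxycycline (SE 0.25, adjusted p = 0.925) and 0.54 for estradiol against withdrawal (SE 0.25, adjusted p = 1.00). Odc1, the rate-limiting enzyme of polyamine synthesis, had the same order of group means, with 173.2 and 242.4, 181.7 and 118.2, and 100.3 and 74.6. The chemokine gene Cxcl1 went the other way, with 128.9 and 120.8 with estradiol, 141.6 and 385.7 after withdrawal and 350.7 and 519.3 with doxycycline (-1.55 for estradiol against doxycycline, SE 0.42, adjusted p = 0.255). Rgs2, a regulator of G protein signalling, read 51.3 and 38.3, 47.5 and 82.8, and 98.6 and 168.0. Sgk1, a kinase induced by serum, read 303.8 and 258.2 with estradiol, 349.7 and 873.4 after withdrawal and 591.6 and 571.0 with doxycycline.

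Upstream factors showed mixed directions, and 0 of the 7 tested SRF, ETS and Egr cofactor genes and 0 of the 6 tested kinase genes passed in any comparison. At an unadjusted p under 0.05 by limma these were Elk1 for withdrawal against doxycycline (1 of 7, against 4.37% of all probe sets) and Mapk8 in both comparisons with doxycycline (1 of 6 in each, against 4.37% and 14%). Elk1, an ETS factor that ERK phosphorylates at Fos and Egr1, read 52.9 and 59.8 with estradiol, 55.8 and 31.0 after withdrawal and 110.9 and 85.6 with doxycycline. Both groups without doxycycline lay below it, with -0.80 for withdrawal against doxycycline (SE 0.27, unadjusted p = 0.0173, adjusted p = 0.925 by limma). Nab2, which represses Egr1 activity, read 440.1 and 330.8, 468.7 and 679.7, and 590.8 and 443.6. Mapk8, the kinase JNK1 that phosphorylates Jun, read 134.0 and 121.5 with estradiol, 150.8 and 117.3 after withdrawal and 227.9 and 280.0 with doxycycline. Its log2 fold change was -0.84 for estradiol against doxycycline (SE 0.26, adjusted p = 0.273) and -0.79 for withdrawal against doxycycline (SE 0.26, adjusted p = 0.925). Mapk9, which encodes JNK2, differed by -0.31 and -0.43 in these comparisons (SE 0.27 each).

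Of 16 tested reported AP-1 target genes, 7 were higher and 9 lower with estradiol than with doxycycline, and 0 passed (6 at an unadjusted p under 0.05 by limma, against 14% of all probe sets). Their median was -0.18, or 0.12 without the first doxycycline array (8 higher, 8 lower) and -0.36 without the second (5 higher, 11 lower). Ccnd1, which encodes cyclin D1, read 332.9 and 609.0 with estradiol, 370.8 and 227.2 after withdrawal and 148.6 and 135.7 with doxycycline (1.47 for estradiol against doxycycline, SE 0.36, adjusted p = 0.255 by limma). Mmp14, a membrane metalloproteinase, read 1147 and 776, 1155 and 3030, and 3654 and 3082 in the same order (-1.80, SE 0.45, adjusted p = 0.255). Hmox1, the heme oxygenase, read 611.3 and 367.6, 703.4 and 173.4, and 938.7 and 841.0. Vegfa, the vascular growth factor, was lower in both groups without doxycycline, with 97.2 and 91.9, 112.6 and 98.4, and 159.4 and 217.6 (-0.79 for estradiol against doxycycline, SE 0.26, adjusted p = 0.280). The targets thus lay on both sides of 0, with Plaur and Ccnd1 in the direction of Fosl1 and Mmp14, Vegfa and Hmox1 opposite to it.

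**Figure D4:**
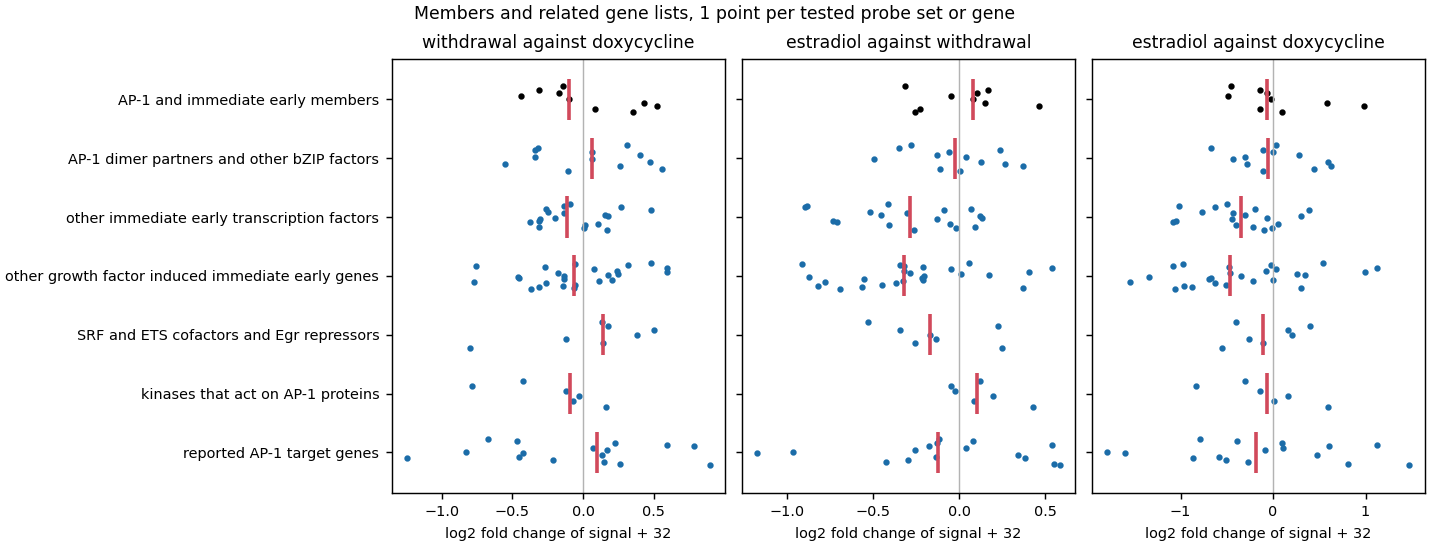
Log2 fold change of signal + 32 (x axis) in the 3 comparisons for the 9 tested member probe sets (black) and for the tested genes of 6 related lists (blue, 1 point per gene from its brightest probe set), with medians as red bars. The members straddle 0 in every comparison, and the other immediate early lists have medians of -0.35 and -0.46 for estradiol against doxycycline.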

How the data were processed

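The authors' deposited values are MAS5 signals, intensities on a linear scale, per the submitters' processing notes, with version and settings not given in the sources used here. Per the labels' protocols, biotinylated cRNA was made from total RNA extracted with RNeasy (replicate 1) or TRIzol (replicate 2). Of 12488 probe sets, 66 were controls. Gene names came from the platform annotation: 10833 of the other probe sets had 1 symbol, 396 several and 1193 none.

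Signals were scaled to a common trimmed mean (2% at each end, factors 0.999968 to 1.00006) and turned into log2(signal + 32), which understates changes of dim probe sets. Controls and the lowest 40% by mean log2 signal (below about 29.0) were left out. The other 7453 probe sets were fitted with limma 3.58.1 (R 4.3.3), with 1 mean per group over 6 arrays, an intensity trend, two-sided p-values and Benjamini-Hochberg adjustment over all 7453 at 0.05. The script was tested on simulated data with known changes for withdrawal against doxycycline. It called 22.1% of changes of 1 on the log2 scale and 97.2% of changes of 2. Most changes of 2-fold would thus be missed. Within-replicate differences subtract arrays of the same number. Marker sums and lists use the brightest probe set of each gene.

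The members and lists were chosen with earlier results of these data known. Named genes were all members, up to 4 genes per list and comparison by unadjusted p, and the 5 genes nearest to each of the 2 most variable members. The number of arrays limits the precision. Nothing in the labels says whether the replicates came from different cultures. The p-values therefore measure only variation from array to array, and this may be technical. In the main fit, which has no block, that variation includes any difference between the extraction methods. Since the labels give each replicate number its own extraction method, arrays of one number share that method and were treated as pairs in the blocked fit. Deviations from group means correlated at -0.0073 between withdrawal and doxycycline, 0.45 between estradiol and withdrawal and -0.028 between estradiol and doxycycline. Alternatives were other pseudocounts (16 and 64), filters, quantile normalization, no trend, replicate blocks and leaving out each array.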

Additional observations from a re-analysis of the deposited data

How the results depend on the processing

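Under all 14 alternatives 0 member probe sets were called in any comparison. Over all tested probe sets, the counts called were 0 under every alternative that kept the 6 arrays. With 1 array left out, limma called 0 to 26 for withdrawal against doxycycline (26 without doxycycline replicate 1), 0 to 17 for estradiol against withdrawal (17 without withdrawal replicate 1) and 0 to 133 for estradiol against doxycycline (28 without doxycycline replicate 1, 131 and 133 without withdrawal replicates 1 and 2). The lone array of a group is then assumed to vary like the other groups. The cause was not tested.

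The median log2 fold change of the member probe sets was -0.0075 for withdrawal against doxycycline and 0.015 for estradiol against withdrawal with the lowest 60% of probe sets left out, which removes the dimmer Junb probe set, and -0.066 for withdrawal against doxycycline with quantile normalization. With 1 array left out it ranged from -0.10 to 0.27 for withdrawal against doxycycline, from -0.13 to 0.10 for estradiol against withdrawal and from -0.30 to 0.01 for estradiol against doxycycline. Of the single member values, 351 moved by less than the spread between replicates and 24 by more, each of these 24 with 1 doxycycline or withdrawal array left out. Many of the 351 could not move. Filters, the trend and the blocks leave a fold change as it is, and so does leaving out an array of the third group. The 351 are therefore no measure of stability. With the replicate number as a block 0 probe sets were called, with a smallest adjusted p of 0.800 for withdrawal against doxycycline, 1.00 for estradiol against withdrawal and 0.201 for estradiol against doxycycline (limma), and the block changed no call. As a random block, with a correlation of 0.062, it called 0 as well. Dim signals limit what can be said of Fos and Fosl2.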
